A study of Mus musculus with 9 samples.

Results

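The neddylation enzymes are the proteins that activate NEDD8, a small ubiquitin-like protein, and attach it to cullins. The set described here held 10 genes: the modifier Nedd8, the activating enzyme subunits Nae1 and Uba3, the conjugating enzymes Ube2m and Ube2f, the RING proteins Rbx1 and Rnf7, the co-ligases Dcun1d1 and Dcun1d2, and the protease Senp8. Members were chosen by gene symbol, and every probe set carrying a member's symbol was kept, alone or together with another gene. Probe sets are named by their gene and their rank of mean signal within it, Ube2f-1 being the brightest of Ube2f. This gave 30 probe sets of the 45101 on the array, covering 9 of the 10 genes. Ube2m had 0 probe sets in the probe table used here, as described below.

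RNA came from 9 cultures of NIH 3T3, a fibroblast line long established from mouse embryos, with 3 cultures for each hairpin. All cells had been transduced with a retroviral vector for a short hairpin RNA (shRNA) and were harvested 5 days later. The hairpin was a control in the first group, targeted Ube2m in the second and targeted Ube2f in the third, with 3 biological replicates each, per the labels. Per the growth label, which is the same for all 9 samples, the cells expressed Ube2f. The sources used here do not say whether an added construct is meant, or how many hairpins were used per target. Each value below is a MAS5 signal, the linear brightness of 1 probe set on 1 array. The number of arrays limits the precision. Where the labels say "biological replicate" they do not say how the cultures were separated, so p-values measure the spread between these cultures.

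NEDD8 is carried through a chain like that of ubiquitin. The heterodimer of NAE1 and UBA3 activates it, an E2 enzyme takes it over, and a RING protein bound to a cullin passes it to a lysine of that cullin, which switches on the ubiquitin ligase built on the cullin. UBE2M is known to work with RBX1, and UBE2F with RNF7 (also called RBX2 or SAG), the RING protein of CUL5. DCN1-like proteins, encoded by Dcun1d genes, bind the E2 and the cullin and speed the transfer. SENP8 (also called DEN1 or NEDP1) processes the NEDD8 precursor, and the COP9 signalosome removes NEDD8 from cullins.

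Facts of the arrays that touch the results below were as follows. Per array, the median signal ran from 53.3 to 58.5 for replicates numbered 1 or 2 and from 64 to 73.5 for replicate 3 of the 3 groups. Differences within replicates 1 and 2 and within replicate 3 are therefore given for the members the results turn on. Beta-actin read 3' over 5' at a ratio of 1.82 on control replicate 1 and 1.24 to 1.35 on the other 8 arrays. All 10 fibroblast markers (Col1a1, Col1a2, Col3a1, Col5a1, Fn1, Vim, Pdgfrb, Thy1, S100a4 and Fbln2) were above the low-signal level of 53.8 on every array, the lowest reading being 1787 for Thy1. Of the other cell types' defining markers, Ptprc (at most 36.3), Krt18 (at most 29.9) and Pecam1 (at most 30.0) were below that level on all 9 arrays, while Csf1r (99.3 to 239.3) and Epcam (119.7 to 211) were above it on all 9, Cdh1 on 8 and Adgre1 on 6. The summed signal of 4 macrophage markers was 289 to 322 in control, 212 to 475 with Ube2m and 203 to 218 with Ube2f shRNA. For 4 epithelial markers it was 229 to 358, 304 to 342 and 370 to 443, and for 3 endothelial markers 29.6 to 53.1, 82.1 to 107 and 58.7 to 95.2. The part of these small sums in the results below was not tested.

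Ube2f signal fell with the Ube2f hairpin on 4 of its 6 probe sets. The brightest, Ube2f-1, read 2367, 2492 and 2757 in control, 3029, 3140 and 2700 with Ube2m shRNA, and 134.9, 117.9 and 143.8 with Ube2f shRNA. The 3 Ube2f shRNA arrays lay far below the other 6, with no overlap. The mean fell from 2539 ± 199 to 132 ± 13.2 (SD, n = 3 arrays each), which left 5.21% of control. In RNA from whole cultures, fewer cells with the transcript and less of it per cell cannot be told apart. Its log2 fold change was -4.11 (95% interval -4.37 to -3.85, limma adjusted p = 3.49e-08), with -4.10 in replicates 1 and 2 and -4.12 in replicate 3. Here and below, fold changes are on the scale of log2(signal + 16), which understates the change of dim probe sets.

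Another bright probe set, Ube2f-2, read 2618, 2638 and 2569 in control and 164.3, 130.2 and 113.3 with Ube2f shRNA. It again left 5.21% of control (log2 fold change -4.12, SE 0.15, limma adjusted p = 1.99e-07). For Ube2f-3 the arrays read 1884, 2095 and 2097 in control and 150.8, 83.5 and 142.9 with Ube2f shRNA, or 6.21% (-3.88, SE 0.18, limma adjusted p = 1.74e-06). Of the called probe sets Ube2f-4 kept the largest share of its control signal, with 873.5, 1005 and 1153 in control against 111.2, 157.3 and 131.4, or 13.2% (-2.78, SE 0.16, limma adjusted p = 1.42e-05). These 4 probe sets started at control means between 1011 and 2608, yet all ended between 83.5 and 164.3 on the Ube2f shRNA arrays. For scale, the median probe set of those arrays read 54.3 to 73.5. Ube2f-1 and Ube2f-3 carry the array's mark for probes that may also match other sequences.

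The other 2 Ube2f probe sets were dim in every group. Ube2f-6 read 96.9, 83.1 and 136.6 in control and 22.7, 3.6 and 73.1 with Ube2f shRNA, so its groups did not overlap, but the spread was wide. Its log2 fold change of -1.55 (SE 0.46) missed the threshold (limma adjusted p = 0.11). It passed in only 3 of 19 other settings. These were the replicate number as a block (adjusted p = 0.0218), replicates 1 and 2 only (-1.94, adjusted p = 0.0246) and without Ube2f replicate 3 (-2.12, adjusted p = 0.0171). Ube2f-5 read 97.7, 45.3 and 124.8 in control and 58.4, 114.2 and 136.9 with Ube2f shRNA. It did not follow the fall, with a log2 difference of 0.20 (95% interval from below -1 to 1.40, limma adjusted p = 0.903).

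**Figure D1:**
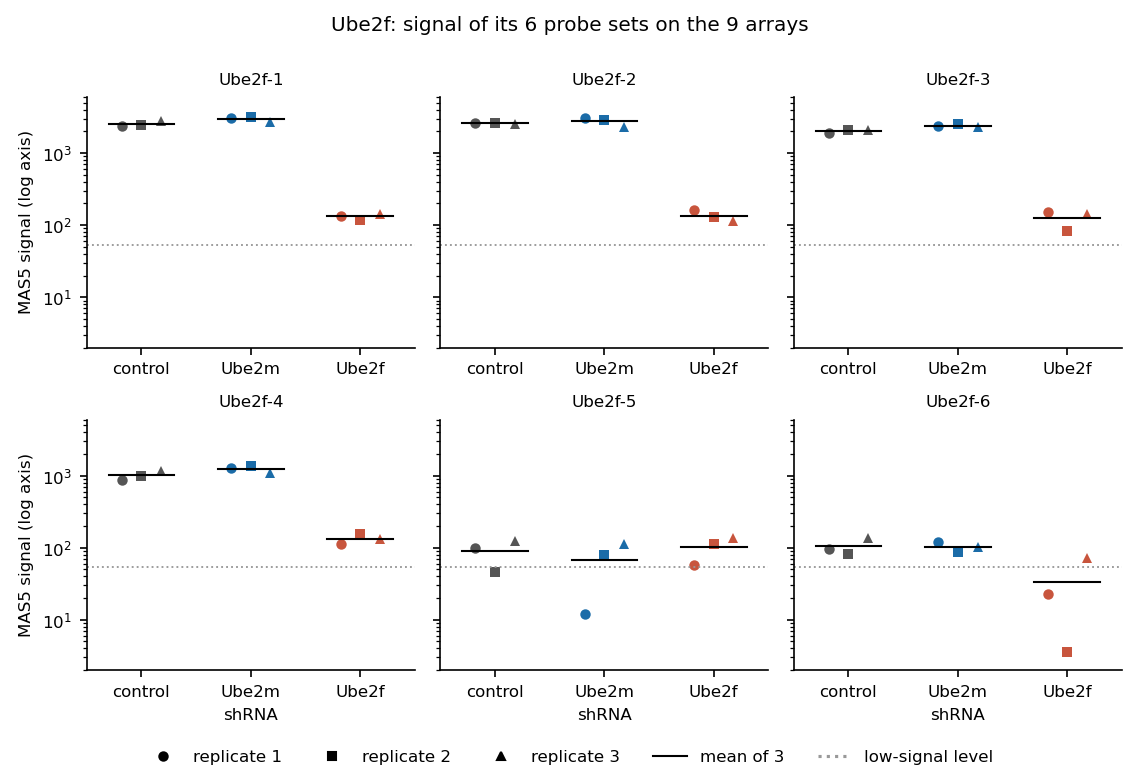
MAS5 signal (log axis) of the 6 Ube2f probe sets on the 9 arrays, by hairpin. Symbols are replicates, black lines group means and the dotted line the low-signal level of 53.8. On the 4 bright probe sets the Ube2f shRNA arrays sit between 83.5 and 164.3 and all other arrays above 873, while Ube2f-5 overlaps in all 3 groups.

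With the Ube2m hairpin, Ube2f signal was not called different from control on any of its 6 probe sets. The log2 differences of the 4 bright ones were 0.22, 0.08, 0.25 and 0.29, with SEs of 0.12 to 0.18 and limma adjusted p of 0.343, 0.836, 0.483 and 0.358. Only for Ube2f-3 did the groups not overlap, with 2395, 2521 and 2330 against a control maximum of 2097. For Ube2f-1 the 95% interval ran from -0.04 to 0.48, so that a rise of the size measured could not be told from none. The replicates differed here, since the difference was 0.34 in replicates 1 and 2 and -0.03 in replicate 3 for Ube2f-1, and 0.49 and -0.10 for Ube2f-4. Between the 2 targeted groups the same 4 probe sets were higher with Ube2m shRNA by log2 values of 4.33, 4.20, 4.14 and 3.08 (limma adjusted p under the threshold of 0.05 in each).

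For Ube2m itself there was nothing to read. Of the probe sets assigned to 1 gene 0 carried the symbol Ube2m, of the 932 assigned to several genes 0 listed it, and 0 carried its gene identifier or 1 of its 3 RefSeq transcripts. The probe table used here lists 35890 probe sets, and 9211 others have no entry in it. The effect of the Ube2m hairpin on its own target was therefore not checked here, and "Ube2m shRNA" below is the label of the group.

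In each comparison 28 of the 30 member probe sets were bright enough to be tested. Between Ube2m shRNA and control 1 of the 28 was called, and it was lower, where limma called 4.45% of all 22519 probe sets tested, 2.07% higher and 2.38% lower. Without adjustment, p was under 0.05 for 4 member probe sets, all lower. Over all 22519 it was under 0.05 for 4438, of which 2018 were higher and 2420 lower. Between Ube2f shRNA and control 4 were called, all lower and all of Ube2f, where 2.89% of all probe sets were called, 1.13% higher and 1.76% lower. Unadjusted, 3 were higher and 6 lower, beside 1994 higher and 1920 lower over all probe sets tested. Between the 2 targeted groups 4 were called, all higher with Ube2m shRNA and all of Ube2f, where 9.53% of all probe sets were called, 4.51% higher and 5.03% lower. Apart from Ube2f, then, 1 of 22 tested probe sets was called against control in the Ube2m comparison, 0 in the Ube2f comparison and 0 between the targeted groups. The comparisons with control share the control arrays. The median log2 difference of these 22 was -0.07, 0.06 and -0.08 in the 3 comparisons, beside 0.01, 0.03 and -0.03 over all probe sets tested.

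**Figure D2:**
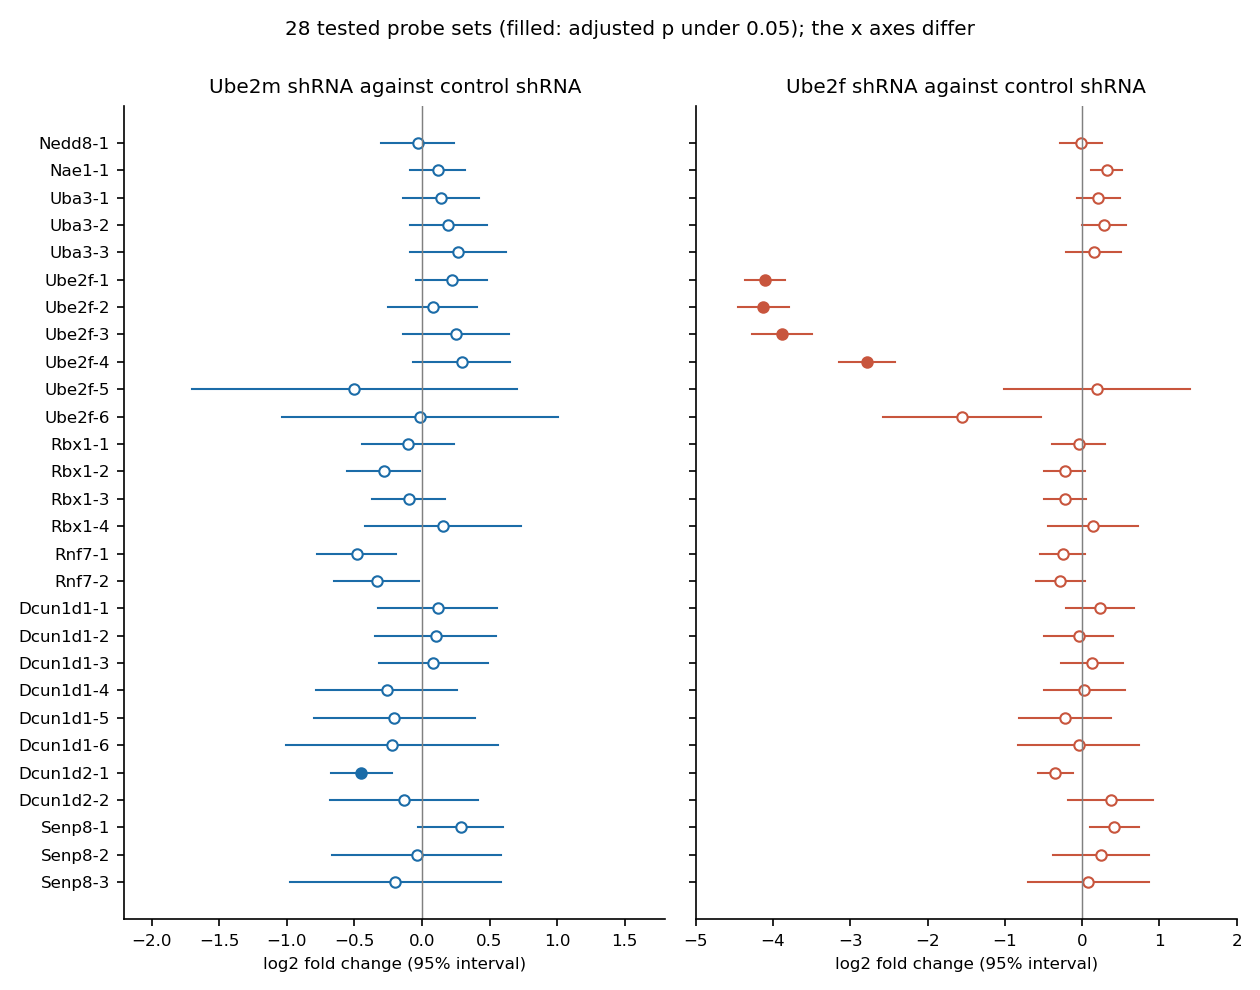
Log2 fold change against control with its 95% interval for the 28 tested probe sets, Ube2m shRNA on the left and Ube2f shRNA on the right, on x axes of different range. Filled points have an adjusted p under 0.05. They are Dcun1d2-1 on the left (-0.45) and 4 Ube2f probe sets on the right (-4.12 to -2.78).

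Dcun1d2, a DCN1-like co-ligase gene, held the 1 member probe set called with Ube2m shRNA. That is 3.57% of the 28 tested, beside 4.45% of all probe sets. The measured difference of Rnf7-1, given below, was larger (-0.48) but not called. Its probe set Dcun1d2-1 read 1078, 1073 and 1005 in control, 732.4, 785.7 and 781.9 with Ube2m shRNA, and 864.9, 810.6 and 795.8 with Ube2f shRNA. All 6 arrays of the targeted groups were below all 3 controls, and the Ube2m group was the lowest. The mean fell from 1052 ± 40.7 to 767 ± 29.7 (SD, n = 3 arrays each), or 72.9% of control (log2 fold change -0.45, 95% interval -0.67 to -0.22, limma adjusted p = 0.0340). The difference was -0.49 in replicates 1 and 2 and -0.36 in replicate 3. With Ube2f shRNA the mean was 824 ± 36.4, or 78.3% of control, which missed the threshold (-0.35, 95% interval -0.57 to -0.12, limma adjusted p = 0.108). The targeted groups differed from each other by -0.10 (95% interval -0.33 to 0.12).

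The Dcun1d2 call was a marginal one. It held in 7 of 20 other settings, over all of which the log2 fold change ran from -0.53 to -0.41 and the adjusted p reached 0.146, and it was lost when any array was left out other than control replicate 3 or Ube2f replicate 3. The adjusted p was 0.0908 without control replicate 1, 0.0862 without control replicate 2, 0.146, 0.12 and 0.0712 without Ube2m replicate 1, 2 and 3, and 0.0603 and 0.0501 without Ube2f replicate 1 and 2. The gene's other probe set, Dcun1d2-2, was near the low-signal level and was not called. It read 50.4, 56.0 and 54.7 in control, 44.4, 53.5 and 45.1 with Ube2m shRNA, and 68.6, 70.8 and 84.1 with Ube2f shRNA. The Ube2f group was thus the highest on this probe set (log2 difference 0.37 from control, SE 0.25, limma adjusted p = 0.493), while it was below control on the bright one. Between the targeted groups Dcun1d2-2 was lower with Ube2m shRNA, without overlap (-0.51, limma adjusted p = 0.266). That difference passed only with no intensity trend (adjusted p = 0.0373).

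Dcun1d1, the other DCN1-like gene of the set, showed no called difference on any of its 6 probe sets. The brightest, Dcun1d1-1, which is also assigned to the pseudogene Tes3-ps, read 602.4, 654.6 and 957.9 in control, 775.1, 665.7 and 934.7 with Ube2m shRNA, and 1003, 703.6 and 882.8 with Ube2f shRNA. The 3 groups overlapped throughout. Its log2 differences from control were 0.11 (95% interval -0.32 to 0.55) and 0.24 (95% interval -0.20 to 0.67). Of the probe sets of Dcun1d1 alone, Dcun1d1-2 read 473.3, 767.5 and 480.7 in control, and its groups overlapped. Over the 6 probe sets the log2 difference ran from -0.26 to 0.11 with Ube2m and from -0.22 to 0.24 with Ube2f shRNA.

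Rnf7, the RING partner of UBE2F, was lower with Ube2m shRNA on both of its probe sets, without passing the threshold in the fit that all results here rest on. On Rnf7-1 the arrays read 2544, 3093 and 2801 in control, 2054, 2310 and 1688 with Ube2m shRNA, and 2613, 2214 and 2249 with Ube2f shRNA. The Ube2m arrays were all below the controls, and 1 Ube2f array lay inside the control range. The mean was 2812 ± 275 in control and 2017 ± 313 with Ube2m shRNA (SD, n = 3 arrays each), 71.7% of control (log2 difference -0.48, 95% interval -0.78 to -0.19, limma adjusted p = 0.0667). It passed in 2 of 20 other settings, with the replicate number as a block (adjusted p = 0.0229) and with 1 probe set per gene tested (adjusted p = 0.0363). Over all 20 the adjusted p reached 0.189, and it passed in 0 of the 9 that left out 1 array. The difference was -0.36 in replicates 1 and 2 and -0.73 in replicate 3.

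The other Rnf7 probe set, Rnf7-2, read 2762, 2766 and 2579 in control, 2446, 2230 and 1789 with Ube2m shRNA, and 2535, 2332 and 1839 with Ube2f shRNA. Both targeted groups lay wholly below the controls. The log2 difference was -0.34 with Ube2m shRNA (SE 0.14, limma adjusted p = 0.225, and 0.0425 with the replicate block) and -0.28 with Ube2f shRNA (limma adjusted p = 0.349). With Ube2m shRNA the block was the only 1 of 19 other settings in which it passed. In the Ube2f group the probe sets gave -0.25 and -0.28, with 95% intervals of -0.54 to 0.04 and -0.60 to 0.03. Between the targeted groups Rnf7 differed by -0.23 and -0.05, neither of them called.

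Rbx1, the RING partner of UBE2M and the catalytic RING of most cullin ligases, had 6 probe sets, of which 5 are also assigned to the pseudogene Rbx1-ps. Signal of the gene and of that copy cannot be told apart on these 5. The brightest, Rbx1-1, read 11049, 10821 and 8866 in control, 10666, 10187 and 7912 with Ube2m shRNA, and 10342, 11416 and 8177 with Ube2f shRNA. The groups overlapped, and replicate 3 was the lowest array of each. Its log2 differences from control were -0.10 (95% interval -0.44 to 0.24) and -0.04 (95% interval -0.39 to 0.30).

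A further Rbx1 probe set, Rbx1-2, was lower with Ube2m shRNA on all arrays, with 8537, 7858 and 7035 in control against 6625, 6602 and 5964. This difference of -0.28 (SE 0.12) missed the threshold (limma adjusted p = 0.223), and with Ube2f shRNA, at 6480, 7791 and 5848, the arrays overlapped those of control. Rbx1-3 had -0.10 and -0.22 in the 2 comparisons, and Rbx1-4 0.15 and 0.14, none called. The probe set assigned to Rbx1 alone, Rbx1-5, was left out by the low-signal filter, with signals of 5.1 to 68.9. Rbx1-6, with 1.4 to 74.9, was left out too.

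The modifier gene Nedd8 had 1 probe set, Nedd8-1, with no called difference. It read 7437, 8077 and 7046 in control, 8187, 7535 and 6425 with Ube2m shRNA, and 7595, 8393 and 6522 with Ube2f shRNA. The groups overlapped, with means of 7520 ± 520, 7382 ± 891 and 7503 ± 939 (SD, n = 3 arrays each). The log2 difference from control was -0.03 (95% interval -0.30 to 0.24) with Ube2m and -0.01 (95% interval -0.28 to 0.26) with Ube2f shRNA. Changes beyond these bounds in either direction lie outside the intervals, while smaller ones could not be resolved with 3 arrays a group.

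Nae1, the regulatory subunit of the NEDD8-activating enzyme, was higher with Ube2f shRNA on every array. Its probe set Nae1-1 read 5263, 5799 and 5096 in control, 5579, 6053 and 5871 with Ube2m shRNA, and 6960, 6931 and 6235 with Ube2f shRNA. The Ube2f arrays were above all 6 others, and the Ube2m arrays overlapped the controls. The mean was 5386 ± 367 in control and 6709 ± 410 with Ube2f shRNA, 125% of control (log2 difference 0.32, 95% interval 0.11 to 0.52, limma adjusted p = 0.106). It was 0.33 in replicates 1 and 2 and 0.29 in replicate 3. It passed with the replicate block (adjusted p = 0.0410) and after quantile normalization (0.34, adjusted p = 0.0373), and in 0 of the other 18 settings. With Ube2m shRNA the difference was 0.12 (95% interval -0.09 to 0.32).

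Uba3, the catalytic subunit that pairs with NAE1, had 3 probe sets of like brightness, all with a measured difference above 0 in both targeted groups and none called. The brightest, Uba3-1, read 2773, 3134 and 3519 in control, 3422, 3477 and 3447 with Ube2m shRNA, and 3709, 3059 and 4192 with Ube2f shRNA. The arrays of the 3 groups overlapped, and the controls differed among themselves by as much as the group means. Over the 3 probe sets the log2 difference was 0.14 to 0.26 with Ube2m shRNA, with limma adjusted p of 0.407 to 0.607, and 0.15 to 0.29 with Ube2f shRNA, with limma adjusted p of 0.284 to 0.695. Uba3-1 and Uba3-2 carry the array's mark for probes shared by transcripts of more than 1 gene.

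Senp8, the NEDD8 protease gene, was higher in both targeted groups on its brightest probe set. Senp8-1 read 215.2, 244.3 and 258.0 in control, 301.5, 296.9 and 284.2 with Ube2m shRNA, and 329.2, 304.8 and 336.1 with Ube2f shRNA. The 3 groups did not overlap one another, with Ube2f shRNA the highest and control the lowest. The means were 239 ± 21.9, 294 ± 8.96 and 323 ± 16.4 (SD, n = 3 arrays each). Even so, the log2 differences of 0.28 (SE 0.14) and 0.41 (SE 0.14) missed the threshold (limma adjusted p = 0.307 and 0.163), and no other setting called them. The remaining Senp8 probe sets were dim. Senp8-2 read 61.2 to 139.1 and Senp8-3 30.4 to 83.1 over the 9 arrays, with overlapping groups. With Ube2m shRNA both differed in sign between the replicates, at 0.28 and 0.25 in replicates 1 and 2 against -0.67 and -1.09 in replicate 3.

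**Figure D3:**
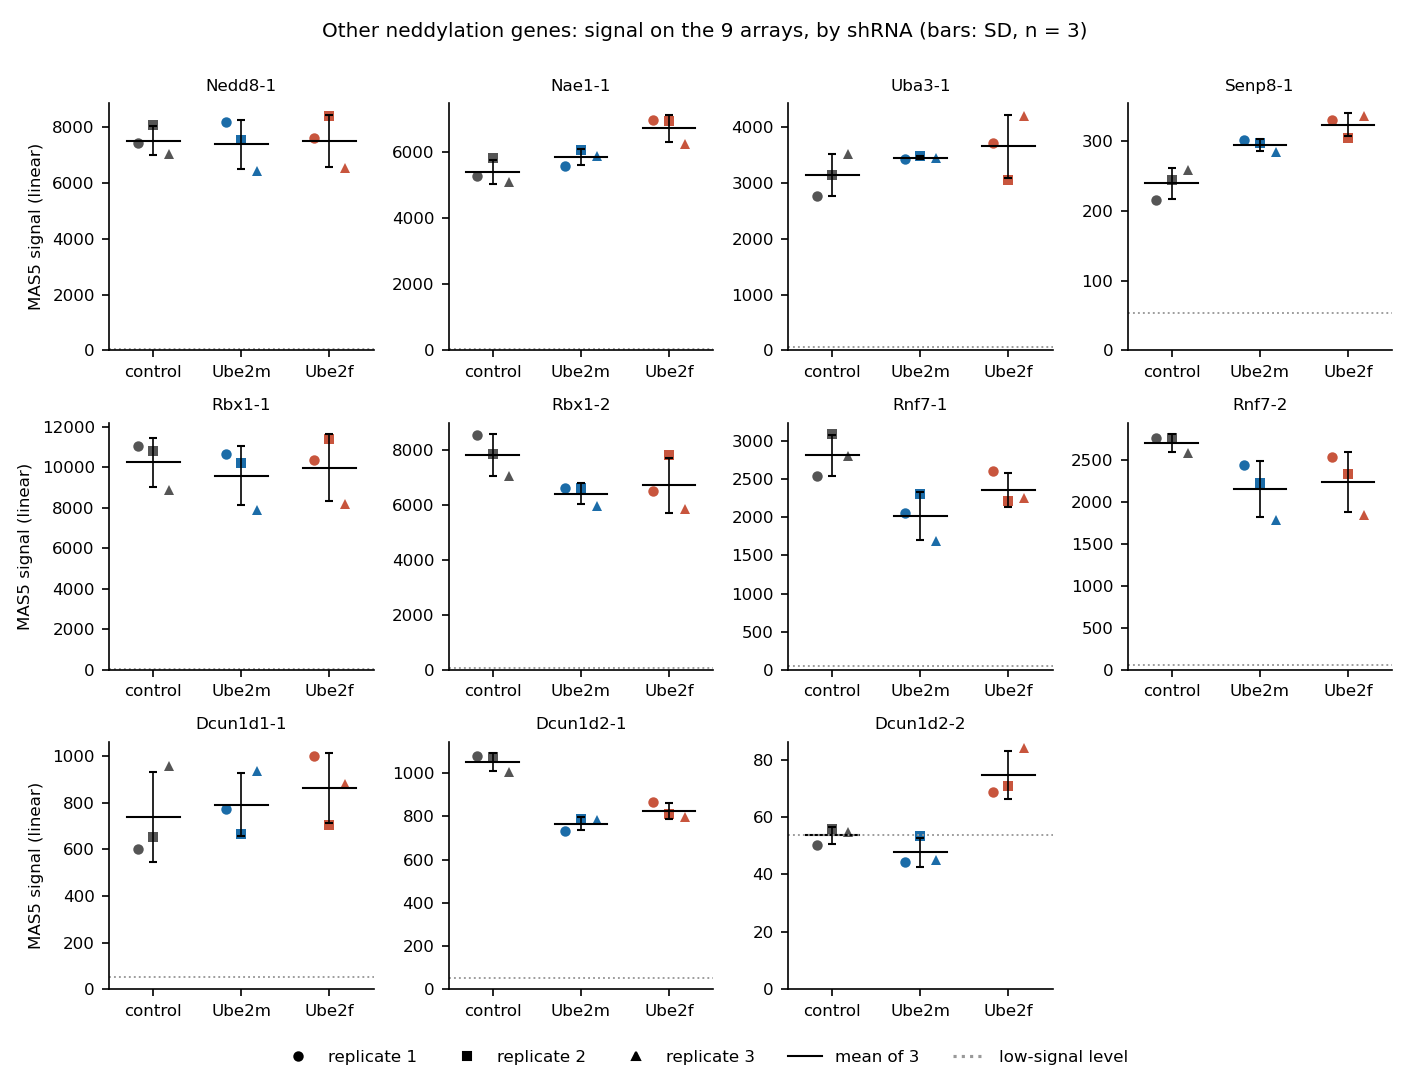
MAS5 signal (linear axis from 0) on the 9 arrays for 11 probe sets of the other 8 member genes, by hairpin. Symbols are replicates, black lines means, bars SD over 3 arrays, the dotted line the low-signal level of 53.8. Dcun1d2-1 and Rnf7-2 have both targeted groups below control, Senp8-1 has both above, and Nedd8 overlaps in all groups.

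Replicate 3 stood apart for several members. It was the lowest array in each of the 3 groups for 6 of the 28 tested member probe sets, namely Nedd8-1, Rbx1-1, Rbx1-2 and Rbx1-3, Rnf7-2 and Ube2f-2. Over all probe sets tested this held for 12.2%. It was the highest array in each group for 3 of the 28, Uba3-2, Dcun1d1-4 and Ube2f-5, against 20.9% of all. The within-replicate values given above are for other probe sets than these. With Ube2m shRNA, Rnf7-2 differed from control by -0.24 in replicates 1 and 2 and by -0.52 in replicate 3. For Nedd8-1 these values were 0.02 and -0.13, and for Rbx1-2 they were -0.31 and -0.24. The part of replicate 3 in the differences between groups was not tested.

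**Figure D4:**
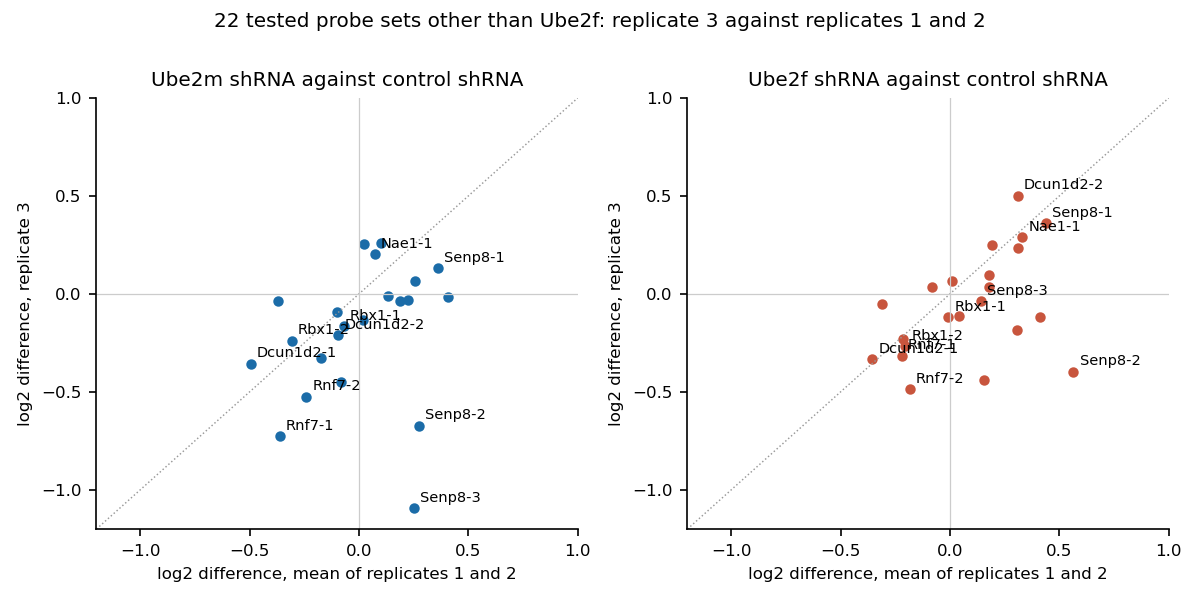
Log2 difference from control in replicate 3 (y axis) against the mean difference in replicates 1 and 2 (x axis) for the 22 tested probe sets other than those of Ube2f, with the line of equal values dotted. With Ube2m shRNA, Rnf7 and Dcun1d2-1 are below 0 on both axes, and the dim Senp8 probe sets Senp8-2 and Senp8-3 are above 0 in replicates 1 and 2 but at -0.67 and -1.09 in replicate 3.

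The rest of the pathway was taken from a list of 25 genes: the other DCN1-like genes, Nub1, Uchl3, Glmn, the cullins, the COP9 signalosome subunits and the CAND factors. They had 49 probe sets for 24 of the genes, of which 40 were tested. With Ube2m shRNA 0 rose and 1 fell, with a median log2 difference of 0.07 (unadjusted p under 0.05 for 2 higher and 2 lower). With Ube2f shRNA 0 rose and 2 fell, with a median of 0.02 (2 higher and 3 lower unadjusted). Between the targeted groups 1 was higher with Ube2m shRNA and 0 lower, with a median of 0.07. The share called was 2.5%, 5% and 2.5%, against the 4.45%, 2.89% and 9.53% of all probe sets given above. The unadjusted counts over all probe sets tested, for the comparisons with control, are also given above.

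The probe set that fell in both was Cops7a-1, 1 of 2 for Cops7a, which encodes a subunit of the COP9 signalosome. It read 2772, 2592 and 2904 in control, 1730, 1673 and 1812 with Ube2m shRNA, and 1575, 1832 and 1724 with Ube2f shRNA. Both targeted groups lay well below the controls and overlapped each other. Its log2 fold change was -0.66 with Ube2m shRNA (SE 0.098, limma adjusted p = 0.00423) and -0.68 with Ube2f shRNA (SE 0.098, limma adjusted p = 0.00471), and both calls held in all 20 other settings. Both comparisons use the same 3 control arrays. The gene's other probe set, Cops7a-2, read 1011, 1601 and 1510 in control, 1210, 1173 and 1071 with Ube2m shRNA, and 1185, 1299 and 1157 with Ube2f shRNA. Its groups overlapped and it was not called, at -0.23 (limma adjusted p = 0.489) and -0.15 (limma adjusted p = 0.692). Cul7, which encodes an atypical cullin, fell with Ube2f shRNA from 912.0, 822.6 and 785.1 to 567.1, 632.6 and 505.2 (Cul7-1, log2 fold change -0.55, limma adjusted p = 0.0428). It held with the replicate block (adjusted p = 0.0161) and was lost when any 1 of the 9 arrays was left out (adjusted p 0.0546 to 0.152). For Cops7b, the paralog of Cops7a, the brighter probe set Cops7b-1 read 1071, 1169 and 991.4 with Ube2m and 863.2, 988.2 and 1011 with Ube2f shRNA, which overlapped (log2 difference 0.17, limma adjusted p = 0.445). The dimmer Cops7b-2 was higher with Ube2m than with Ube2f shRNA, at 628.0, 524.4 and 526.3 against 356.8, 386.1 and 306.6 (log2 fold change 0.65, limma adjusted p = 0.0380). Its call held without each of the control arrays but not without any of the 6 others (adjusted p up to 0.151). With the replicate block 2 further genes passed, the cullins Cul1 with Ube2m shRNA (log2 difference -0.32, adjusted p = 0.0391 with the block and 0.151 in the fit reported) and Cul4a between the targeted groups (-0.44, adjusted p = 0.0087 with the block and 0.0642 in the fit reported). The block was the only 1 of 20 other settings that called Cul1-1, while Cul4a-1 passed in 4 of 20. Between the targeted groups Cul4b-1 (0.36, limma adjusted p = 0.275) passed in 2 of 20, replicates 1 and 2 only and without Ube2f replicate 3.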

How the data were processed

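The deposited table holds 1 linear signal intensity per probe set and array, made with MAS5 per the submitters' processing notes. The sources used here give neither the version of MAS5 nor its settings, and no detection calls were used. The mean signal without the top and bottom 2% of probe sets was 500 on every array, so each had been scaled by 1 factor. Gene names came from the array's probe table. All 11 gene names on the member probe sets were found in a mouse RefSeq table (GRCm38.p6), which served for names only.

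All tests used log2(signal + 16) without the 64 control probe sets. A probe set was tested if its mean log2 value reached the median of the others (6.12, a signal of 53.8), which left 22519. The linear model (limma 3.58.1 under R 4.3.3) had a mean for each of the 3 groups and shared its variance over the 9 arrays (lmFit, then contrasts.fit, then eBayes, whose prior followed mean signal). Two-sided p-values were adjusted over every tested probe set with the Benjamini-Hochberg method at a threshold of 0.05, and intervals are at 95%. The script was tested on simulated data with 200 changed probe sets. With 3 arrays against 3 the smallest exact permutation p is 0.1, so that test was not used. The same limit holds where groups of arrays are said not to overlap. Such statements describe the readings only, and their share over all probe sets is not given here.

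Each gene is given first by its probe set with the highest mean. Of the other pathway genes, those past the threshold are named. The members and gene lists were chosen with earlier results of these data known. Same-numbered arrays of different groups deviated together in all 9 pairs (r of 0.13 to 0.63 over probe sets, which are not independent). The rule for using the number as a block was an r over 0.1 in each pair, and all 9 pairs met it. The fit reported here nonetheless has no block, and the blocked fit is given as 1 of the other settings. The labels name no shared batch. These r values set replicate 3 apart but do not pair replicates 1 and 2 by number. Control replicate 1, for instance, had an r of 0.13 with Ube2m replicate 1 and 0.19 with Ube2m replicate 2. Results with the replicate block carry that limit. Pairs of arrays with different numbers ranged from -0.47 to 0.32, since replicates 1 and 2 resembled each other. Blocked values are given where they change a call. Alternatives covered the added constant, the filter, scaling, probe sets per gene, the samples used, the block, the variance model, the beta-actin ratio and leaving out each array.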

Additional observations from a re-analysis of the deposited data

How the results depend on the processing

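The falls of the 4 bright Ube2f probe sets with Ube2f shRNA kept their direction and passed in every alternative that tested them, with log2 fold changes of -4.27 to -2.44. The counts of limma calls moved more, and the cause was not tested. For Ube2m shRNA against control the 1003 probe sets called over the array became 540 with arrays centred on their median, 663 with only the 2 groups compared, 2037 in replicates 1 and 2, 2730 with the replicate block, 612 with no intensity trend, 463 with the beta-actin covariate and 327 to 1133 with single arrays left out. For Ube2f shRNA against control 651 became 352, 256, 1270, 2003, 370 and 240 in the same order, and 187 to 600. Between the targeted groups 2147 became 1159 with centred arrays, 3547 with the replicate block and 1000 to 2300 with single arrays left out. With centred arrays the split of higher to lower calls was 177 to 363 for Ube2m shRNA, against 467 to 536, and 88 to 264 for Ube2f shRNA, against 254 to 397.

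Of the members, the 1 called with Ube2m shRNA became 0 without the filter, with quantile normalization, centred arrays, only 2 groups, no trend or the beta-actin covariate, 2 with 1 probe set per gene, 3 with the replicate block, and 0 to 1 with single arrays left out. The 4 called with Ube2f shRNA and between the targeted groups became 1 in each with 1 probe set per gene, which keeps 1 for Ube2f, and 4 to 5 with single arrays left out. With the block they were 6 and 5. With no intensity trend 5 were called between the targeted groups, of which 4 were higher with Ube2m shRNA and 1, Dcun1d2-2, lower. Of the other pathway probe sets, the 1 called with Ube2m shRNA became 2 with the block and stayed 1 with single arrays left out. The 2 called with Ube2f shRNA became 1 without the filter, with quantile normalization, centred arrays, only 2 groups, replicates 1 and 2, no trend, the beta-actin covariate or any single array left out. The 1 between the targeted groups became 0 without the filter, with centred arrays or no trend, 2 in replicates 1 and 2 or with the block, and 0 to 1 with single arrays left out. These were not always the same probe set, and Cops7b-2 passed in 9 of 19 other settings. In replicates 1 and 2 the 2 called were Cul4a-1 and Cul4b-1. With 1 probe set per gene, and without Ube2m replicate 3, the 1 called was Cul4a-1, which was lower with Ube2m shRNA. Of the 84 fold changes of tested member probe sets, 33 took both signs over the settings, and 0 of these 33 passed the limma threshold in any setting (adjusted p of 0.678 or more in the fit reported). Of the members' calls, the replicate block changed none other than those named beside the results and Ube2f-6 between the targeted groups (1.54, adjusted p = 0.0129). Probe sets with a mean below the low-signal level were tested only in the setting without the filter.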
